A study of Mus musculus with 12 samples.

Results

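E2F transcription factors and the retinoblastoma proteins that restrain them set when a cell copies its DNA. The 10 genes described here, E2f1, E2f2, E2f3, E2f4, E2f6, E2f7, E2f8, Rb1, Rbl1 and Rbl2, were taken by symbol from 55536 annotated genes in RNA-seq of CD8+ T cells, and all of them had counts enough to be tested. The cells carried the OT-I transgenic T cell receptor, which recognises a peptide of ovalbumin, and were on a C57BL/6J background. OT-I cells were transferred into C57BL/6J recipients, which received the peptide with a control rat IgG (Ag, 5 libraries) or the peptide with agonist antibodies to the costimulatory receptors OX40 and 4-1BB (Ag+Costim, 5 libraries). The cells were collected from spleen and lymph nodes after 4 days according to the labels, while the study's methods give a slightly shorter time after stimulation. The Naive libraries (2) came from OT-I mice that had neither been transferred nor given antigen. By the study's methods the OT-I donors lacked Rag1 or Rag2, the transferred cells were sorted as CD8+ CD45.1+ Vα2+ Vβ5+, and the mice were of both sexes. The labels give neither the age behind a library nor the animal it came from, so p-values measure the spread between these libraries. Because every transferred T cell had the same receptor, the model shows 1 clonal specificity. The Ag and Naive cells thus differ in transfer, host and control IgG as well as in antigen, and these cannot be told apart. Below, 'with antigen', 'antigen alone' and 'the antigen step' are short names for Ag against Naive. The comparisons ask how Ag differed from Naive in this gene set, and what costimulation added.

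As background, E2F1, E2F2 and E2F3 are activators that switch on genes for nucleotide supply, replication origins and S phase entry, while RB1, the retinoblastoma protein, binds and silences them until cyclin-dependent kinases phosphorylate it. E2F4 lacks a nuclear localisation signal of its own and works mainly with p107 (Rbl1) and p130 (Rbl2) in the DREAM complex, which holds cell cycle genes off in resting cells, T cells included. E2F6 represses through a Polycomb complex without binding the retinoblastoma family, and the atypical factors E2F7 and E2F8 bind DNA without a DP partner, repress G1/S genes late in S phase and are themselves E2F target genes.

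All 10 are protein-coding genes with 1 locus each on GRCm38, the build of the files. By the GENCODE vM21 annotation the activators lie with E2f1 at chr2:154559407-154569892 (minus), E2f2 at chr4:136172394-136196057 (plus) and E2f3 at chr13:29906575-29986063 (minus). The repressive and atypical factors lie with E2f4 at chr8:105297663-105305370 (plus), E2f6 at chr12:16810963-16839742 (plus), E2f7 at chr10:110745439-110787384 (plus) and E2f8 at chr7:48866429-48881596 (minus). The pocket protein genes are Rb1 at chr14:73183673-73325822 (minus), Rbl1 at chr2:157145893-157204534 (minus) and Rbl2 at chr8:91070057-91123844 (plus). Of the 10, 6 overlap another annotated gene.

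The starts of these genes are shown because some of the members that differed most carry an E2F sequence there and others do not. RefSeq windows of 300 bases on GRCm38.p6, from 250 bases before to 50 bases after a start, matched 8 of the 10 genes by symbol in 10 windows, with E2f4 and Rb1 unmatched. The E2F letters searched on both strands were TTTCCCGC, TTTCGCGC, TTTGGCGC and TTTGCCGC, and 744 of 32851 windows over all genes (2.26%) held at least 1 match. Among the members, 1 window each of E2f2, E2f3, E2f7 and Rbl1 held a match. A second motif, TTTGAA, which is the core of the CHR element bound by DREAM, was found in 17.9% of all windows. It lay in windows of E2f2, E2f3, E2f8 and Rbl2. The 250 bases before 5 starts follow, 5′ to 3′ on the strand of the gene, with the E2F letters in capitals. The distances given count the start base as 0.
E2f3, start of transcript E2f3-201, chr13:29986064-29986313, minus strand: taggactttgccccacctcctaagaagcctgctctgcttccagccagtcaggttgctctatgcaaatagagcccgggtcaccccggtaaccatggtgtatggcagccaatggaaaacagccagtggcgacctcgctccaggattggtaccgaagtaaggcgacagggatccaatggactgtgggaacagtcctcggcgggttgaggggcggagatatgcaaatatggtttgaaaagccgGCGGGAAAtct
E2f3, start of transcripts E2f3-203 and E2f3-204, chr13:29984392-29984641, minus strand: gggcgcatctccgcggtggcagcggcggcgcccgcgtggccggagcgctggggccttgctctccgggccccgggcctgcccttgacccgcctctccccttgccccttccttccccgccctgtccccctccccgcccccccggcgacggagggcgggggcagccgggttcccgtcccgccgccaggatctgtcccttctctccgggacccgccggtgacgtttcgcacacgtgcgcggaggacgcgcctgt
E2f7, chr10:110745189-110745438, plus strand: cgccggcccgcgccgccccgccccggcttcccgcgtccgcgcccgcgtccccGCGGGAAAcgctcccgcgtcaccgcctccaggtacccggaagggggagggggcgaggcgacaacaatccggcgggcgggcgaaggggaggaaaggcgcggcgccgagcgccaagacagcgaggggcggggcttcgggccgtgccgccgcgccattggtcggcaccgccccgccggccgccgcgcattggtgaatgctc
Rbl1, chr2:157204535-157204784, minus strand: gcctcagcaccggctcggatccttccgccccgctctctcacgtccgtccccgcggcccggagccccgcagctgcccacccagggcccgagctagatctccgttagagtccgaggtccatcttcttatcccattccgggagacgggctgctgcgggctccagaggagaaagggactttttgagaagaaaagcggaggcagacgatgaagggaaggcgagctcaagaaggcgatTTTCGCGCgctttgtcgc
E2f8, start of transcript E2f8-202, chr7:48881597-48881846, minus strand: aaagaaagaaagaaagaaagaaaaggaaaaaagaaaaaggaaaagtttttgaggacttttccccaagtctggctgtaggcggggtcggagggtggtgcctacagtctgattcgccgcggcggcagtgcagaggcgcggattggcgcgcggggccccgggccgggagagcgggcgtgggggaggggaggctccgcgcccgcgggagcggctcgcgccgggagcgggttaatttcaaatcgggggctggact
The match lay at -11 to -4 in the first E2f3 window and at -18 to -11 in Rbl1, close to the start, but at -198 to -191 in E2f7. The second E2f3 window and the E2f8 window held none of these letters, and the E2f8 window held the CHR letters at -20 to -15. The RefSeq window of E2f1 began inside the annotated gene and is not shown.

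Sequencing gave between 24006053 and 49294934 gene counts per library. Ag 4 had the lowest total, with all other libraries at 40028682 or more. Defining CD8 T cell transcripts (Cd3d, Cd3e, Cd3g, Cd8a, Cd8b1, Trac) were present in every library, while Cd4 stayed between 0 and 2.44 CPM (counts scaled to library size). Red cell transcripts summed to 150 to 2072 CPM in Naive, 626 to 6384 CPM in Ag (highest in Ag 4) and 15.3 to 224 CPM in Ag+Costim. The 8 B cell markers summed to about 1095 CPM in both Naive libraries, 1151 to 1869 CPM in Ag and 583 to 1197 CPM in Ag+Costim, mostly from Ighm. Pax5 and Ebf1 were at 0 in both Naive libraries. Of the B cell markers, 6 of 8 were called higher in Ag than in Naive and 5 of 8 were below Ag with costimulation, as were 6 of 8 red cell markers and 5 of 6 CD8 T cell markers. The 8 myeloid markers summed to 30.7 to 110 CPM in Naive, 68.2 to 186 CPM in Ag and 91.9 to 155 CPM in Ag+Costim. Of these, 3 were called higher and 2 lower in Ag against Naive (Cd68 from a mean of 2.51 to 28.5 CPM). With costimulation 3 were called higher, with group means given here: Csf1r (5.52 to 16.3 CPM), Itgam (1.96 to 10.3 CPM) and Adgre1 (2.1 to 5.53 CPM). All 3 overlapped between Ag and Ag+Costim. The Itgam mean was driven by Ag+Costim 5 (31.7 CPM), beside 2.30 to 8.84 CPM in the others. The part of these transcripts in the results below was not tested, and in bulk RNA fewer cells of a type and less RNA per cell cannot be told apart. Of 18817 genes tested, costimulation gave 5006 calls above Ag and 4979 below it. Upper-quartile scaling gave 4056 and 6338, and it shifted the median over all genes from -0.05 to -0.24 on the log2 scale. In that comparison the 8 member calls given below held under every alternative that was run, with 8 members called higher in each.

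Both atypical factors and 2 of the 3 activators were higher in Ag than in Naive, and p130 was lower. In Ag against Naive, 4 of 10 members were called higher (E2f1, E2f2, E2f7 and E2f8) and 1 lower (Rbl2), at an adjusted p below 0.05 in edgeR's quasi-likelihood test with Benjamini-Hochberg adjustment over all genes tested. Across all genes, 24.2% were called higher and 22.5% lower in this comparison. Costimulation then raised 8 of 10 members above Ag and lowered none, against 26.6% of all genes called higher and 26.5% lower. E2f1 and Rb1 were the 2 members that did not pass. Both comparisons use the same Ag libraries, so a high or low Ag value moves the 2 results in opposite directions.

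**Figure D1:**
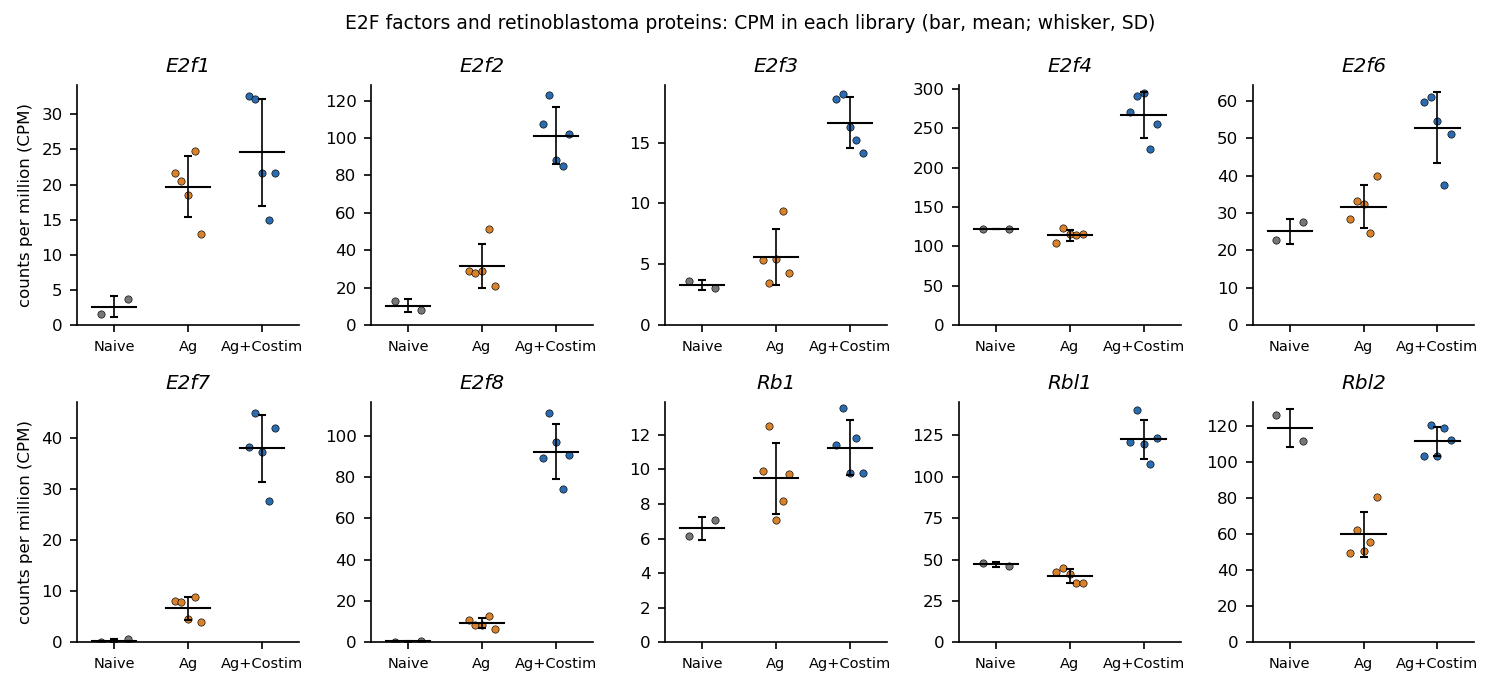
CPM of the 10 genes in each library of the Naive (2), Ag (5) and Ag+Costim (5) groups; each panel has its own vertical axis from 0, the horizontal bar is the group mean and the whisker 1 SD. E2f7 and E2f8 were near 0 in Naive and separated all 3 groups, Rbl2 was low in Ag only, and E2f1 overlapped between Ag and Ag+Costim.

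Of the activators, E2f1 was the one that was higher in Ag than in Naive and that costimulation left within the spread. E2f1 was at 1.56 and 3.72 CPM in the Naive libraries. In Ag it was at 21.7, 20.6, 18.6, 24.8 and 13.0 CPM, and in Ag+Costim at 32.7, 32.2, 21.6, 15.0 and 21.6 CPM. Every Ag library lay above both Naive libraries, but Ag and Ag+Costim overlapped widely. E2f1 rose by 2.90 on the log2 scale with antigen (SE 0.41, adjusted p = 7.17e-05, edgeR). The costimulation step gave 0.32, with a 95% interval of -0.23 to 0.87 and an adjusted p of 0.314 (edgeR).

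E2f2, an activator expressed in lymphocytes and in red cell precursors, rose at both steps. It was at 13.0 and 8.0 CPM in Naive and at 29.1, 28.0, 28.9, 51.5 and 20.8 CPM in Ag. With costimulation it reached 107.5, 123, 88.5, 85.1 and 102 CPM. The 3 groups did not overlap. The log2 fold changes were 1.59 (SE 0.31, adjusted p = 9.28e-04) for Ag against Naive and 1.68 (SE 0.22, adjusted p = 2.06e-05) for Ag+Costim against Ag. The high value within Ag belonged to Ag 4, the library with the least depth and the most red cell RNA, and without it the changes were 1.35 and 1.92. Ag 4 was also the highest Ag library for E2f1 (24.8 CPM), E2f3 (9.41), E2f7 (8.86) and E2f8 (12.5), but for no other member. For E2f6 it was the lowest (24.7 CPM). The red cell markers had a median log2 fold change of 1.15 with antigen, where none of the 8 passed, and of -4.38 with costimulation, and their part in the E2f2 values was not tested.

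E2f3 rose at the costimulation step. It was at 3.62 and 3.02 CPM in Naive, at 5.33, 3.49, 5.48, 9.41 and 4.26 CPM in Ag, and at 18.6, 19.0, 16.2, 15.2 and 14.2 CPM in Ag+Costim. The Ag and Naive libraries overlapped, while every Ag+Costim library lay above every other. The log2 fold change with costimulation was 1.58 (SE 0.23, adjusted p = 5.40e-05). With antigen alone it was 0.74 and did not pass (95% interval 0.07 to 1.41, adjusted p = 0.0653), although it passed in DESeq2 and when Ag 2 or Ag 5 was left out.

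E2f4, the main partner of the pocket proteins in resting cells, did not pass with antigen, within a narrow interval, and rose 2.33-fold with costimulation. Naive libraries were at 122 and 122 CPM. Ag libraries were at 104, 123, 116, 114 and 116 CPM, and Ag+Costim libraries at 270, 291, 295, 224 and 256 CPM. The Naive values fell inside the Ag range, and the lowest Ag+Costim library stood well above it. The antigen step gave a log2 fold change of -0.09 (95% interval -0.33 to 0.15, adjusted p = 0.540). The costimulation step gave 1.22 (SE 0.09, adjusted p = 1.14e-07).

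E2f6, the Polycomb-linked repressor, had the smallest change among the E2f genes that passed with costimulation. It was at 22.8 and 27.5 CPM in Naive, 28.3, 33.2, 32.5, 24.7 and 40.1 CPM in Ag, and 59.9, 61.2, 54.8, 37.5 and 51.2 CPM in Ag+Costim. The lowest Ag+Costim library, Ag+Costim 4, lay below the highest Ag library, so the groups overlapped. With costimulation the log2 fold change over all its transcripts was 0.74 (SE 0.15, adjusted p = 0.00105). The share of its protein-coding transcripts is given further below. The antigen step gave 0.34 without passing (95% interval -0.10 to 0.77, adjusted p = 0.195).

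The atypical repressors had the largest log2 fold changes of the 10 genes in both steps. E2f7 was nearly silent in Naive, at 0.144 and 0.588 CPM, which were 7 and 28 counts. Ag libraries were at 8.07, 7.97, 4.54, 8.86 and 3.99 CPM and Ag+Costim libraries at 38.3, 44.9, 37.3, 27.7 and 42.0 CPM. No library of one group reached the next. The log2 fold change was 4.18 (SE 0.50, adjusted p = 1.69e-05) with antigen and 2.51 (SE 0.28, adjusted p = 5.13e-06) with costimulation.

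E2f8 was at 0.247 and 0.798 CPM in Naive, or 12 and 38 counts. In Ag it was at 10.9, 8.48, 8.48, 12.5 and 6.40 CPM, and in Ag+Costim at 89.0, 111, 96.7, 74.3 and 90.5 CPM. All 3 groups stood apart here too, and the lowest Ag+Costim value was several times the highest Ag value. With antigen the log2 fold change was 4.15 (SE 0.39, adjusted p = 2.47e-06), and E2f7 and E2f8 were both among the 3.93% of all genes called higher by 3 or more at that step. With costimulation it was 3.31 (SE 0.22, adjusted p = 8.48e-08), a 9.90-fold difference, and 1.82% of all genes were called higher by a log2 fold change of 3 or more in that comparison. From Naive to Ag+Costim the log2 fold changes of E2f7 and E2f8 were 6.69 and 7.46 (adjusted p = 4.19e-07 and 2.68e-08), against 5.35% of all genes called higher by 3 or more.

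**Figure D2:**
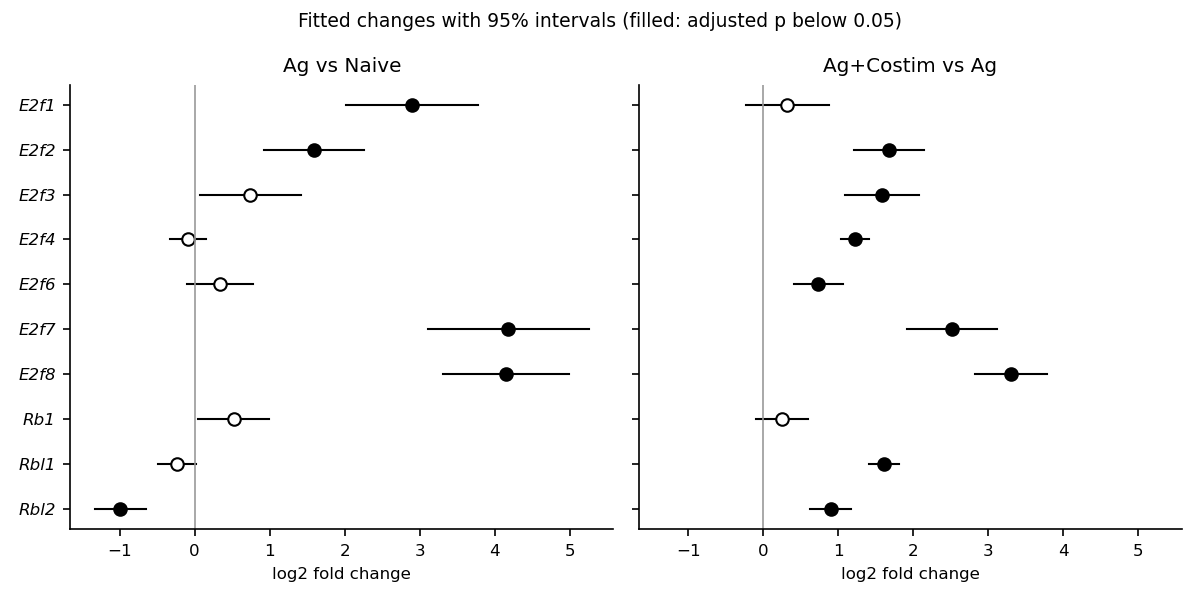
Fitted log2 fold change of each gene for Ag against Naive (left) and Ag+Costim against Ag (right) with 95% intervals as lines; filled points passed an adjusted p below 0.05. E2f7 and E2f8 were far to the right in both panels, Rbl2 changed side, and E2f1 passed on the left but not on the right.

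The 3 pocket proteins behaved differently from one another. Rb1 itself was at 6.13 and 7.08 CPM in Naive, 9.92, 12.5, 7.06, 8.19 and 9.72 CPM in Ag, and 11.4, 13.5, 9.80, 11.8 and 9.76 CPM in Ag+Costim. The Ag range touched both other groups. Its log2 fold change did not pass at either step, with 0.25 for costimulation (95% interval -0.10 to 0.59, adjusted p = 0.217; -0.05 with a correction for transcript length) and 0.52 with antigen (95% interval 0.05 to 1.00, adjusted p = 0.0667). Against Naive, Ag+Costim libraries were higher by 0.77 on the log2 scale (SE 0.22, adjusted p = 0.0104), a call that was lost without Naive 1 (0.66, adjusted p = 0.104). Rb1 overlaps 4 annotated genes. Lpar6, which lies within Rb1 on the opposite strand, carried 6494 and 7022 counts in Naive, 2386 to 5815 in Ag and 665 to 1335 in Ag+Costim. Rcbtb2, also on the opposite strand, carried 1505 to 3430. The part of these genes in the Rb1 values was not tested. The library kit does not mark strand, so reads from the shared stretch cannot be told apart.

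Rbl1, encoding p107, a pocket protein known to accumulate in cycling cells, was at 48.1 and 45.9 CPM in Naive. It was at 42.3, 44.9, 41.3, 35.9 and 35.8 CPM in Ag and at 121, 140, 120, 108 and 124 CPM in Ag+Costim. Every Ag library lay just below both Naive libraries and far below every Ag+Costim library. The log2 fold change was 1.61 (SE 0.09, adjusted p = 2.55e-08) with costimulation. With antigen alone it was -0.23 and did not pass (95% interval -0.49 to 0.02, adjusted p = 0.125), and with a correction for transcript length it was 0.0035.

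Rbl2, encoding p130, the pocket protein of quiescent cells, was at 127 and 112 CPM in Naive. In Ag it was at 49.7, 62.5, 51.0, 55.9 and 80.9 CPM, and in Ag+Costim at 104, 121, 104, 119 and 112 CPM. All Ag libraries lay below all libraries of both other groups, whose ranges overlapped. Rbl2 fell by 0.99 on the log2 scale with antigen (SE 0.16, adjusted p = 1.86e-04). With costimulation it was 0.90 higher than in Ag (SE 0.12, adjusted p = 3.92e-05). Ag+Costim and Naive differed by -0.09 (95% interval -0.44 to 0.26, adjusted p = 0.656).

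Against Naive, 9 of 10 members were called higher in Ag+Costim and none lower, with Rbl2 the exception. The libraries of E2f1, E2f2, E2f7 and E2f8 lay wholly above Naive in Ag, as did 27.2% of all genes, and those of Rbl1 and Rbl2 wholly below, as did 29.2%. In Ag+Costim 7 members lay wholly above Ag, beside 21.3% of all genes above and 18.5% below, and 9 lay wholly above Naive, beside 31.7% above and 34.2% below. Across all genes 26.9% were called higher and 25.4% lower in that comparison.

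Levels of different genes can be compared only per length, and for this the deposited FPKM values (fragments per kilobase of transcript, scaled to sequencing depth) were summed over the transcripts of each gene. E2f4 was the most abundant member in all 3 groups, at 68.4 ± 0.763 FPKM in Naive (SD, n = 2), 57.0 ± 4.31 in Ag (SD, n = 5) and 128 ± 13.3 in Ag+Costim (SD, n = 5). In Naive it was followed by Rbl2 (29.0 FPKM), Rbl1 (13.9), E2f6 (11.5), E2f2 (2.48), Rb1 (1.69), E2f1 (1.05), E2f3 (0.795), E2f8 (0.156) and E2f7 (0.0919). The neighbours Rbl1 and E2f6, E2f1 and E2f3, and E2f8 and E2f7 overlapped in their FPKM between libraries. The resting cells thus held E2f4 and p130 transcripts in front and the atypical factors last.

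In Ag the order by FPKM after E2f4 was Rbl2 (13.0), E2f6 (12.7), Rbl1 (10.7), E2f1 (7.10), E2f2 (6.68), E2f8 (2.54), Rb1 (2.21), E2f7 (1.71) and E2f3 (1.15). The ranges of Rbl2, E2f6 and Rbl1, of E2f1 and E2f2, and of each neighbour from E2f8 down to E2f3 overlapped. In Ag+Costim the order was Rbl1 (27.1), E2f8 (24.6), Rbl2 (22.5), E2f6 (21.9), E2f2 (20.6), E2f7 (9.02), E2f1 (8.57), E2f3 (3.23) and Rb1 (2.41), with overlapping neighbours from Rbl1 to E2f2, between E2f7 and E2f1, and between E2f3 and Rb1. E2f8 moved from near the bottom of the list in Naive to the level of the pocket proteins p107 and p130, and E2f1 stayed in its middle or below.

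These levels put the balance within the family in numbers, by ratios chosen after the values were seen and given as a description. The summed FPKM of the activators E2f1, E2f2 and E2f3 was 4.33 in Naive, 14.9 in Ag and 32.4 in Ag+Costim. For the atypical E2f7 and E2f8 it was 0.248, 4.25 and 33.6. The ratio of atypical to activator FPKM was 0.0306 and 0.0871 in the Naive libraries, between 0.239 and 0.357 in Ag and between 0.908 and 1.202 in Ag+Costim, so that no 2 groups overlapped. E2f4 made up 81.0% of the summed FPKM of the 7 E2f genes in Naive, 64.2% in Ag and 59.5% in Ag+Costim. Ag (60.8% to 66.7%) and Ag+Costim (57.1% to 62.3%) overlapped in this share, and both lay below Naive.

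For the pocket proteins, the FPKM ratio of Rbl1 to Rbl2 was 0.407 and 0.558 in Naive. It lay between 0.585 and 1.08 in Ag and between 0.964 and 1.32 in Ag+Costim. The ratio was thus lower in both Naive libraries than in any other, and Ag and Ag+Costim overlapped.

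**Figure D3:**
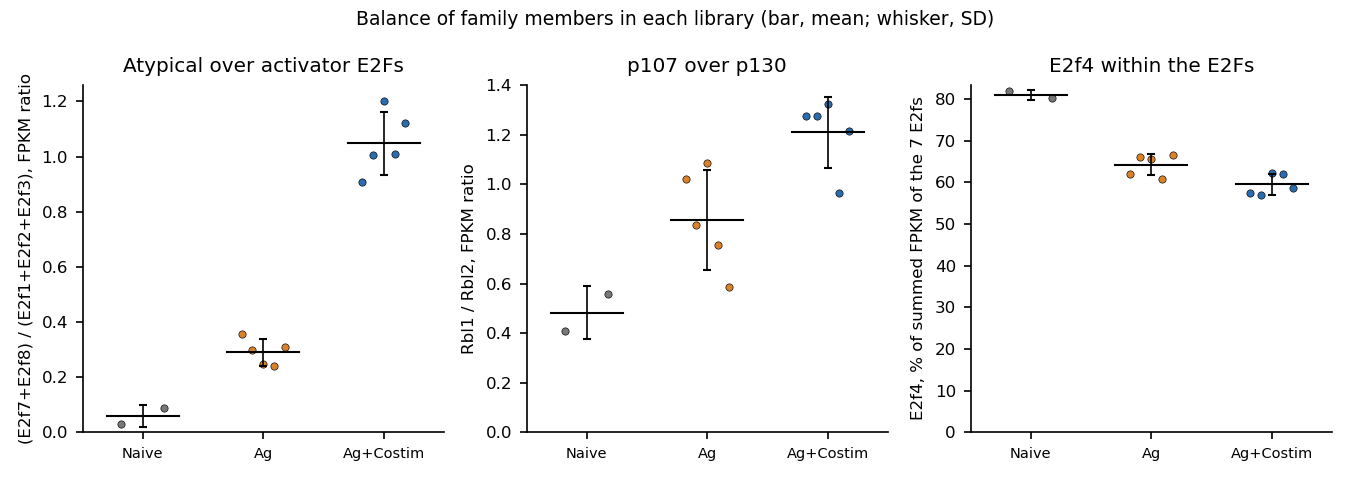
FPKM ratios in each library, with mean (bar) and SD (whisker) by group and vertical axes from 0: atypical over activator E2Fs, Rbl1 (p107) over Rbl2 (p130), and E2f4 as a percentage of the 7 E2f genes. The atypical over activator ratio separated all 3 groups and was near 1 in Ag+Costim, while the Rbl1 over Rbl2 ratio overlapped between Ag and Ag+Costim.

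The transcript counts add which start of a gene the reads were assigned to. These counts are estimates, since StringTie shares the reads of common exons between overlapping transcripts, and single transcripts of these genes came and went between libraries of 1 group. Rbl2-208, for example, held 2202 counts in Ag 5, 1364 in Ag+Costim 3 and 2587 in Ag+Costim 4, and 0 in the other 9 libraries. E2f6-201 was at 0 in Ag+Costim 4 and between 415 and 1772 counts elsewhere.

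Nearly all E2f3 counts went to transcripts from 2 annotated starts, whose upstream sequences are printed above. The upstream start, with the E2F letters just before it, makes E2f3-201. It was at 0 counts in both Naive libraries, where each library's floor of 3 counts is 0.0690 and 0.0709 CPM. In Ag it was at 5.13, 3.49, 2.75, 5.42 and 3.8 CPM, and in Ag+Costim at 12.5, 14.4, 10.1, 10.3 and 13.8 CPM. The downstream start, of E2f3-203 and E2f3-204 and with none of these letters, took all 176 and 144 counts of E2f3 in Naive, 0 to 3.99 CPM in Ag and 0.338 to 6.11 CPM in Ag+Costim. The counts of the upstream start thus separated all 3 groups, and those of the downstream start did not.

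Of the 4 annotated transcripts of E2f8, 2 held nearly all counts. These differ by their first exon alone and share exons 2 to 13. E2f8-201, from the inner start, was at 0.247 and 0.798 CPM in Naive, 6.37 to 12.5 CPM in Ag and 31.0 to 60.9 CPM in Ag+Costim. E2f8-202, from the outer start, was at 0 in both Naive libraries and in 4 of 5 Ag libraries, with 3 counts in Ag 1, and at 57.5, 49.4, 44.0, 18.5 and 50.9 CPM in Ag+Costim. E2f8-201 accordingly held 99.0% ± 0.708 of the gene's counts in Ag and 52.2% ± 14.8 in Ag+Costim (SD, n = 5 each), without overlap. The difference of -46.8 percentage points had p = 0.00794 in an exact two-sided permutation test, the smallest that 5 against 5 libraries allow, and 0.0802 after adjustment over 10378 genes with several transcripts, none of which passed 0.05 and of which 2181 (21%) had an unadjusted p below 0.05. Libraries did not overlap, with a lower share in Ag+Costim, for 2.6% of those genes, and with a higher share for 7.29%. All of these share the smallest p, so 0.0802 was the lowest adjusted value that any gene could reach here.

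The authors' splicing table gives 1 Psi value (percent spliced in, from 0 to 1) per group from a separate program. For the first exon of E2f8-201 it was 0.873 in Ag and 0.756 in Ag+Costim. Both readouts were lower with costimulation, with a smaller difference by Psi (-0.117) than by transcript count. They also differed in level, since E2f8-201 held 99.0% of counts in Ag and 52.2% in Ag+Costim. The near absence of E2f8-202 from Ag therefore rests on the transcript counts alone. The median Psi of the 11 core exons of E2f8 was higher with costimulation. The first exon of E2f8-202 also overlaps an exon of Gm2788 on the other strand, a gene with 0 to 47 counts per library, and without strand the reads of both cannot be told apart.

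**Figure D4:**
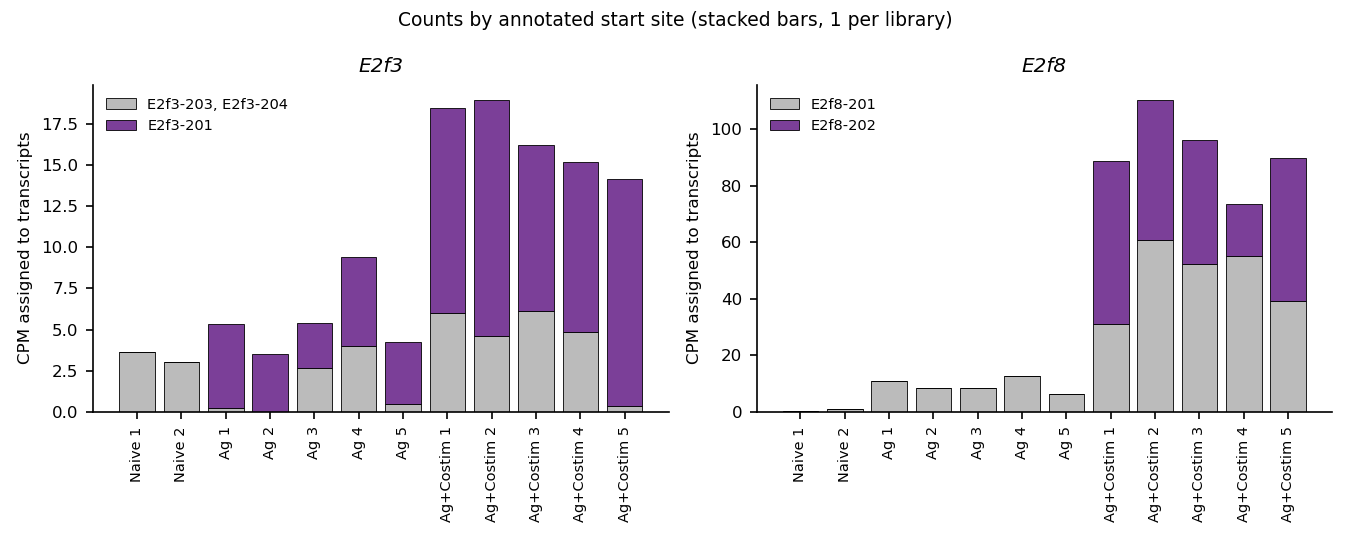
CPM assigned to the transcripts of each annotated start of E2f3 (left) and E2f8 (right), stacked, 1 bar per library. E2f3-201 was absent from the Naive bars and present in all others, and E2f8-202 appeared in the 5 Ag+Costim bars, from 18.5 to 57.5 CPM.

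E2f1 also has 2 starts. The outer transcript, E2f1-202, held 61.2% ± 11.7 of E2f1 counts in Ag and 77.4% ± 5.40 in Ag+Costim (SD, n = 5 each; exact permutation p = 0.0238, adjusted over all such genes 0.157). In the 2 Naive libraries this share was 86.8% and 12.4%. The Psi of the stretch found only in the first exon of E2f1-202 was 0.276 in Ag and 0.383 in Ag+Costim. For the inner start Psi was 0.726 and 0.616. By Psi the inner start was thus ahead in both groups, unlike by transcript counts. While total E2f1 did not pass between these groups, its outer transcript was at 12.02, 15.4, 11.4, 11.2 and 9.04 CPM in Ag and at 26.0, 25.2, 17.3, 12.2 and 14.7 CPM in Ag+Costim, which overlap.

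Rbl1 differed in the kind of transcript. The protein-coding Rbl1-201 held 75.0%, 74.8%, 64.9%, 67.4% and 63.9% of Rbl1 counts in the Ag libraries and 88.8%, 89.2%, 84.4%, 88.4% and 89.5% in the Ag+Costim libraries, and nearly all other counts went to Rbl1-202 and Rbl1-204, annotated as retained introns. The groups did not overlap. The difference was 18.9 percentage points (exact permutation p = 0.00794, adjusted 0.0584 over 8516 genes with coding and other transcripts, none of which passed 0.05 and of which 2197, or 25.8%, had an unadjusted p below 0.05). The 2 Naive libraries were at 89.3% and 61.5%. Across those genes the coding share was higher in Ag+Costim without overlap in 11.7% and lower in 1.89%. These too share the smallest p, so 0.0584 was the lowest adjusted value that any gene could reach here. Rbl2 was another gene that was higher without overlap, at 96.5% ± 1.74 in Ag and 98.5% ± 0.356 in Ag+Costim. For E2f6 the mean coding share was lower, at 52.6% ± 12.5 in Ag and 37.1% ± 23.9 in Ag+Costim. The groups overlapped and it did not pass (exact permutation p = 0.246, adjusted 0.505). The coding E2f6-201 averaged 16.7 CPM in Ag and 21.4 CPM in Ag+Costim. E2f6-204, annotated as a nonsense-mediated decay transcript, averaged 10.2 and 22.2 CPM. The median Psi of core exons was higher in Ag+Costim for all 10 members, and for 72.8% (lower for 27.1%) of 6536 genes with at least 5 core exons, so that most genes shared this direction. Among the members were E2f8 (0.912 and 0.993), E2f7 (0.909 and 0.981), E2f3 (0.896 and 0.971) and Rbl1 (0.977 and 0.994).

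The genes that work with or under these factors were counted from lists by role, with the background of all genes as above. G1/S genes driven by E2F, such as the Mcm helicase subunits, rose in Ag for 27 of 32 and fell for 3 (Cdt1, Dnmt1 and Pold1), with a median log2 fold change of 1.82 beside 0.02 over all genes. Leaving out either Naive library reduced the 3 that fell to 1 or 0, and the length correction and the replicate block each reduced them to 1. With costimulation all 32 were called higher than in Ag, with a median of 1.81 beside -0.05. At the top were Mcm10, a replication initiation factor (3.09), Dnmt1, the maintenance DNA methyltransferase (3.07), and Pole, the catalytic subunit of the leading strand polymerase (3.01). At the bottom were Slbp, the histone mRNA binding protein (0.69), Prim1, a primase subunit (1.00), and Gins1 (1.05).

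G2/M genes repressed by DREAM in resting cells were all called higher at both steps. The medians of the 14 genes were 4.39 with antigen and 1.79 with costimulation on the log2 scale. Bub1, a spindle checkpoint kinase (3.16), Kif11, a spindle motor (2.73), and Plk1, a mitotic kinase (2.24), led the second step. Ccnb2 (1.01), Birc5 (1.04) and Cdc20 (1.40) changed least in it.

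**Figure D5:**
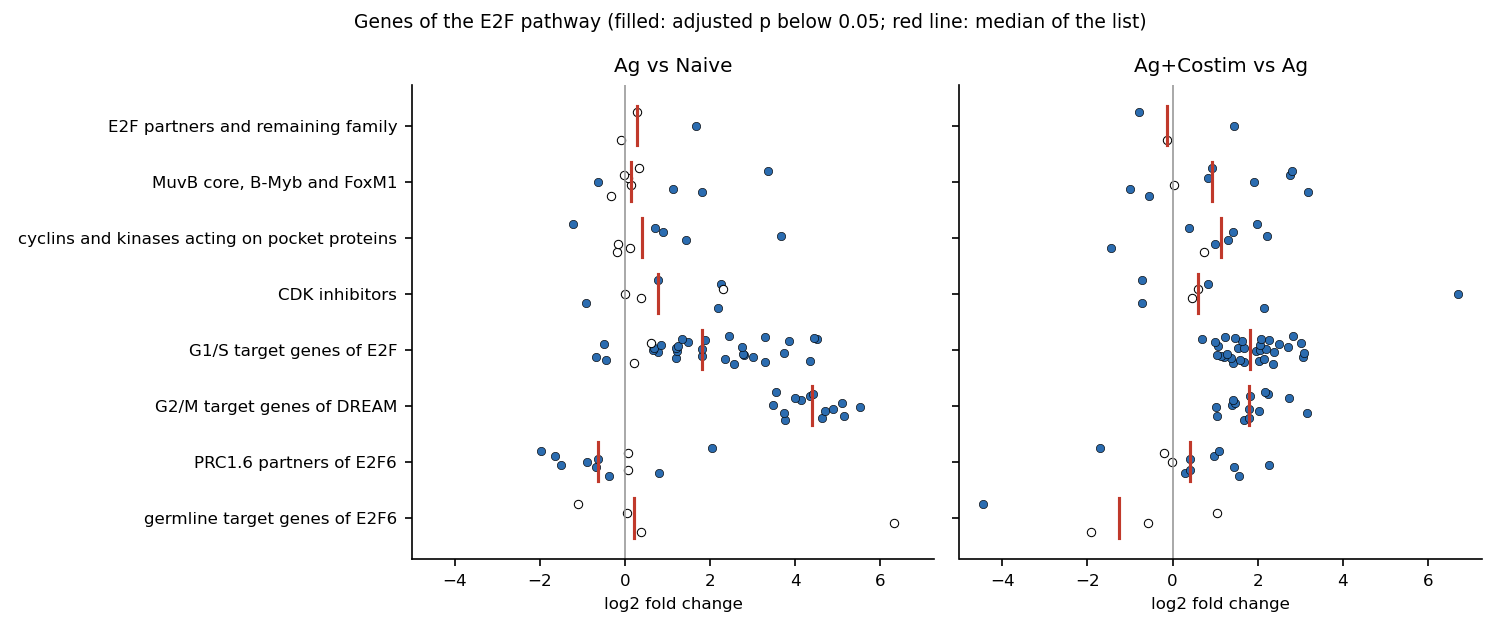
Fitted log2 fold changes of the genes of 8 lists around the E2F family, for Ag against Naive (left) and Ag+Costim against Ag (right); each point is a gene, filled when its adjusted p was below 0.05, and the red line is the list's median. All 32 G1/S and all 14 G2/M genes lay to the right of 0 in the costimulation panel, while PRC1.6 genes lay mostly left of 0 with antigen and right of it with costimulation.

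Among the partners, Tfdp1, the DP1 subunit that pairs with E2F1 to E2F6, rose at both steps, by 1.67 and 1.45 on the log2 scale. Tfdp2 (DP2) fell by 0.79 with costimulation. E2f5 did not pass in either comparison (-0.08 with antigen and -0.13 with costimulation). Of 9 genes of the MuvB core and its activating partners, 3 rose and 1 fell with antigen and 6 rose and 2 fell with costimulation. Under the length correction 5 of these 9, and 2 of the 3 partners, were called higher with antigen. Foxm1 (3.18), Mybl2 (2.80) and Mybl1 (2.75, below 2.5 CPM in all libraries) rose most, and these are the factors that turn MuvB from repression to activation of G2/M genes. Lin37, a MuvB subunit needed for repression by DREAM, fell by 0.99 with costimulation after a rise of 1.13 with antigen, and Dyrk1a, the kinase that promotes DREAM assembly, fell by 0.54. Lin52 gave 0.03 and did not pass.

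Of 8 cyclins and kinases that act on pocket proteins, 4 rose and 1 fell with antigen, and 6 rose and 1 fell with costimulation. The 1 that fell with antigen (Cdk6, -1.20) became 0 without Naive 2, and 2 without Ag 4 or on FPKM. Ccne2 (cyclin E2, 2.21), Cdk6 (1.98) and Cdk2 (1.42) led the costimulation step. Ccnd2, the cyclin D2 gene, fell by 1.45, Cdk4 rose by 0.39, and Ccnd1 gave 0.74 without passing. Of 7 CDK inhibitors, 3 rose and 1 fell with antigen and 3 rose and 2 fell with costimulation. The fall with antigen (Cdkn1b, -0.91) was not called without Naive 1. Cdkn1a (p21) rose by 2.15 with costimulation, Cdkn1b (p27) fell by 0.72 and Cdkn2d (p19) fell by 0.71. Cdkn2a was at 0 in all Naive and Ag libraries and at 0.0698 to 0.617 CPM in Ag+Costim, 65 counts in all. Cdkn2c (p18) rose by 0.84 and Cdkn1c gave 0.46 without passing.

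Of the partners of E2F6 in its Polycomb complex, PRC1.6, 7 of 11 fell and 2 rose with antigen (median log2 fold change -0.63), and with costimulation 8 rose and 1 fell (median 0.42). The 8 became 5 under upper-quartile scaling and under the length correction, and the 1 became 2 without Ag 4. Max, a DNA-binding subunit, rose by 2.25 with costimulation after a fall of 1.5 with antigen. Cbx3 rose by 1.55 and L3mbtl2 by 1.43, Yaf2 fell by 1.69, and Rnf2 (-0.20) and Mga (-0.0043) did not pass. Germline genes that E2F6 keeps silent stayed at or below 2.67 CPM in every library. Of 7 listed, 4 had counts enough to be tested (Stag3, Smc1b, Tuba3a and Dazl), none was called higher at either step, and Tuba3a was called lower with costimulation, with 52 counts over the 5 Ag libraries and 2 over the 5 Ag+Costim libraries. That call was lost with the compared groups alone and on FPKM, and DESeq2 called 1 germline gene higher with antigen. In the main fit of Ag+Costim against Ag, Stag3 gave 1.04, Smc1b -0.59 and Dazl -1.93 without passing.

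The genes whose log2 CPM ran most like a member's over the 12 libraries are given as a description, since the 12 points fall into 3 groups that share treatment. Among 9252 genes above a mean log2 CPM of 3, those closest to E2f8 by Pearson r were Cenpi (0.998), Exo1 (0.996), Fancd2 (0.995), Stil (0.995) and Ccnf (0.994). Several of these are genes of the kinetochore, DNA repair and the cell cycle. Those closest to E2f1 were Zdhhc2 (0.987), Sms (0.975), Cenpk (0.974), Plpp5 (0.968) and Foxd2os (0.965). For Rbl2 they were Itprip (0.986), Med15 (0.980), Galnt2 (0.978), Qrich1 (0.973) and Pdxdc1 (0.970).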

How the data were processed

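RNA from sorted OT-I CD8+ T cells was made into SMART-Seq v4 and Nextera XT libraries, which do not mark strand, and sequenced as single reads of 100 bases. Per the submitters' processing notes, reads were handled with HISAT2 2.1.0, SAMtools 1.9 and StringTie 2.1.0 on mm10. The deposited gene and transcript counts come from StringTie coverage, so a count is not exactly 1 read: they summed to 90.9% to 107% of the reads, of which 72.3% to 76.5% percent aligned per the deposited lane sheet. The deposited FPKM values are per transcript and were summed per gene. The deposited Psi values are a fraction from 0 to 1, 1 per group, made by the authors with Whippet, with no SD or n. The authors' DeltaPsi and probability columns hold their own comparison and were not used.

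Entries without a gene identifier (26345, at most 0.121% of counts) were left out. Gene counts of all 12 libraries were fitted together with edgeR 4.0.16 (R 4.3.3; TMM factors 0.940 to 1.13, filterByExpr, robust quasi-likelihood test, 1 term per group), with Benjamini-Hochberg adjustment over 18817 genes and calls at an adjusted p below 0.05. Depth limits low genes, since 3 counts were 0.0609 to 0.125 CPM. Intervals cover the spread between libraries. Transcript shares were compared by exact two-sided permutation tests (scipy 1.17.1). They were adjusted over all genes with such transcripts, in place of the members alone as first planned. Alternatives were upper-quartile scaling, DESeq2 1.42.0, no filter, the compared groups alone, limma 3.58.1 on log2(FPKM + 1), a length correction, a replicate block and leaving out each library. Fits were tested on simulated data.

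The members and gene lists were chosen with earlier results of these data known. All 10 members are named. Of each list, up to 3 genes at each end of the costimulation step are named, and for E2f1, E2f8 and Rbl2 the 5 genes with the highest Pearson r. Genes outside that rule (Cdt1 and Pold1) were named after their values were seen, as were the transcripts and starts described.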

Additional observations from a re-analysis of the deposited data

How the results depend on the processing

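With costimulation against Ag, the 8 member calls held under every alternative run. Of the members' log2 fold changes under the alternatives, 178 of the antigen step kept direction and side of the threshold, 11 newly passed and 1 reversed. For costimulation 189 kept both and 1 reversed, and for Ag+Costim against Naive 188 kept both and 2 no longer passed. The length correction reversed Rbl1 in Ag against Naive (0.0035) and Rb1 in Ag+Costim against Ag (-0.055), and called 7 members higher in Ag instead of 4, adding E2f3 (0.94), E2f6 (0.55) and Rb1 (0.75). On FPKM, limma called 2 members lower in Ag instead of 1, adding Rbl1 (-0.34). Rb1 also passed in Ag against Naive with upper-quartile scaling (0.56), without Ag 3 (0.61) and without Ag 4 (0.57), and E2f3 with DESeq2 (0.73), without Ag 2 (0.87) and without Ag 5 (0.83). Rb1 in Ag+Costim against Naive did not pass on FPKM (0.34). The cause was not tested. Over all genes, leaving out 1 library gave 2906 to 4944 called higher and 2807 to 4625 lower in Ag against Naive, lowest without Naive 2. On FPKM the split of higher and lower calls was 3535 and 5231 in Ag against Naive (4559 and 4233 on counts) and 3835 and 6045 in Ag+Costim against Naive (5066 and 4778 on counts). Upper-quartile scaling moved the median of all genes in the latter to -0.18.

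Counting the most abundant transcript alone, in place of all transcripts, gave FPKM of 0.363 (Naive) and 4.25 (Ag) for E2f1, 0 (Naive) and 2.29 (Ag+Costim) for E2f3, 66.6 (Naive) for E2f4, 0.901 (Ag) and 4.78 (Ag+Costim) for E2f7 and 12.3 (Ag+Costim) for E2f8. In Naive, Ag and Ag+Costim it gave 6.19, 6.80 and 8.44 for E2f6, 8.08, 5.62 and 21.1 for Rbl1, and 25.1, 9.48 and 17.9 for Rbl2. These levels are lower because fewer transcripts were summed.

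Leaving out 1 library turned some small differences in transcript share (percentage points, Ag+Costim minus Ag). For the most abundant transcript the ranges were -0.0594 to 0.0405 for E2f2, -11.6 to 0.825 for E2f3, -3.73 to 2.34 for E2f7 and -13.4 to 8.18 for Rbl2. For protein-coding transcripts they were -0.0594 to 0.0405 for E2f2, -0.138 to 0.288 for E2f3 and -0.0396 to 0.416 for E2f8.

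The labels number the libraries in each group. After each gene's group mean of log2 CPM was subtracted, same-numbered Ag and Ag+Costim libraries correlated by 0.0159 to 0.0951. Differently numbered ones correlated by -0.0817 to 0.0746. The labels do not say whether equal numbers mark a pair. In these centred values 3 of 5 Ag libraries correlated best with their own number. With the replicate number as a block, 5 members were called higher and 1 lower in Ag against Naive, with Rb1 (0.70) added, 8 and 0 in Ag+Costim against Ag, and 9 and 0 in Ag+Costim against Naive. Over all genes the block gave 4140 higher and 3775 lower, 4993 and 4743, and 4799 and 4279 in these comparisons.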
